A study of Schizosaccharomyces pombe with 24 samples.

Results

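The comparison described here sets 2 libraries of clr4D-labelled fission yeast (Schizosaccharomyces pombe) against 2 libraries of wild-type cells (wt), all taken 10 h after nitrogen was removed. The libraries were chosen by their labels and are 4 of the 24 in the series, which sampled both strains from growth to 24 h without nitrogen. The wt strain is labelled 975 h+ and the other 975 h+ clr4D::NatMX6, in which clr4 is given as replaced by a drug resistance cassette, so both groups carry the same labelled mating type and differ in that allele alone as far as the labels say. All cells grew at 32 °C in EMM, a defined minimal medium, with adenine, histidine, leucine, lysine and uracil, and were then washed and kept at 32 °C in EMM lacking a nitrogen source. Total RNA was isolated with hot phenol, treated with DNase, depleted of ribosomal RNA and turned into directional libraries. The time of 10 h was picked because the strains differed most widely there, so the breadth of the difference is not a finding in itself.

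Clr4 is the only enzyme of fission yeast that methylates histone H3 at lysine 9, the mark on which heterochromatin is built at centromeres, telomeres and the silent mating-type region. Cells that run out of nitrogen stop growing, and cells of opposite mating types answer each other's pheromones, mate, and pass through meiosis into spores. Cells with h+ labels are of the P type, which secretes P-factor and senses M-factor, whereas M cells do the reverse. Without a partner, P cells settle into quiescence.

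Reads on genes numbered 2277094 and 798482 in the wt libraries and 1479036 and 1034225 in the clr4D-labelled libraries. Levels are given as CPM, the counts of a library scaled to a common total of gene reads with a correction for composition, replicate 1 before replicate 2, and differences as clr4D-labelled minus wt on a log2 scale with a standard error (SE) from the fit. A gene was called higher or lower where its adjusted p (edgeR quasi-likelihood F test, two-sided, Benjamini-Hochberg over 5664 genes) lay under 0.05. Replicates, which the series describes as biological, had a Pearson r across genes of 0.9843 in wt and 0.9796 in clr4D-labelled libraries on the log2 CPM scale. The p-values rest on the spread between replicates in all 24 libraries, fitted together as 12 groups, and not on the 4 libraries at 10 h alone. In bulk RNA, fewer cells that express a gene and less RNA per cell cannot be told apart. Reads aligned to more than 1 place, which were counted for no gene, made up 6.97% and 7.37% of the wt libraries and 9.26% and 9.07% of the clr4D-labelled libraries.

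The targeted gene itself, clr4 (SPBC428.08c), still carried reads. It stood at 108 and 126 CPM in wt and at 129.6 and 128 CPM in clr4D-labelled cells (log2 difference 0.16 ± 0.23 SE, adjusted p = 0.683). It was not called, though both clr4D-labelled values lay above both wt values. As clr4 was not lower in them, the mutant libraries are called clr4D-labelled throughout. The strain difference of clr4 differed between 10 h and 0 h by log2 -1.20 ± 0.33, adjusted p = 0.0351; at 0 h the mean level was 130.5 CPM in wt and 337 CPM in clr4D-labelled cells. The gene overlaps meu6 on the opposite strand, and meu6, a meiotic gene, was among the largest rises at 10 h, from 3.92 and 0 CPM in wt to 992 and 435 CPM in clr4D-labelled cells. In clr4D-labelled cells the level of clr4 was 385 ± 59.6 CPM (mean ± SD, n = 2) at 1 h, 132 ± 20.6 at 2 h and 119 ± 9.96 at 4 h, while meu6 stood at 2.66 ± 1.95, 2.27 ± 1.67 and 3.703 ± 2.98 CPM. At 24 h clr4 stood at 188 ± 30.7 CPM and meu6 at 344 ± 133 CPM in clr4D-labelled cells, and clr4 at 95.4 ± 8.16 CPM in wt. The source of the clr4 reads was not tested.

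At 10 h, 1354 of 5664 tested genes were called (23.9%), 677 higher (12%) and 677 lower (12%) in clr4D-labelled cells. The groups' libraries did not overlap in 65.2% of all tested genes. Genes named below as the largest changes of a list were picked with non-overlap as a condition. Non-overlap given for them is therefore no support. Among higher genes 380 rose at least 2-fold, 214 at least 4-fold and 108 at least 10-fold, whereas 148 fell at least 2-fold, 9 at least 4-fold and 2 at least 10-fold. With library totals as the only scaling, the calls were 727 higher and 461 lower, and the median log2 difference over all genes was 0.12 above that with the scaling used here. Leaving out a library lowered the count to 722 without wt replicate 1 and to 713 without clr4D-labelled replicate 1. Protein-coding genes split into 574 higher and 643 lower of 4944, and long non-coding RNAs (lncRNAs) into 93 higher and 32 lower of 675.

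Genes of mating, meiosis and sporulation gave many of the large rises. The lists that cover them hold 226 genes, of which 213 were tested, 157 were higher and 4 lower, with a median log2 difference of 1.73 against -0.02 over all genes tested. They supplied 94 of the 214 rises of at least 4-fold, and 23.2% of all higher genes. Their share of gene reads was 1.66% and 1.76% in the wt libraries and 9.19% and 7.11% in the clr4D-labelled libraries, so the groups did not overlap. That share takes in all 226 genes, tested or not. Some members, mfm3, mei3, rec15 and spo4 among them, had 3 or fewer wt reads. Members that passed the filter only through clr4D-labelled libraries had to differ. Counts and medians that include such members, here and in the single lists below, are therefore no evidence on their own.

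**Figure D1:**
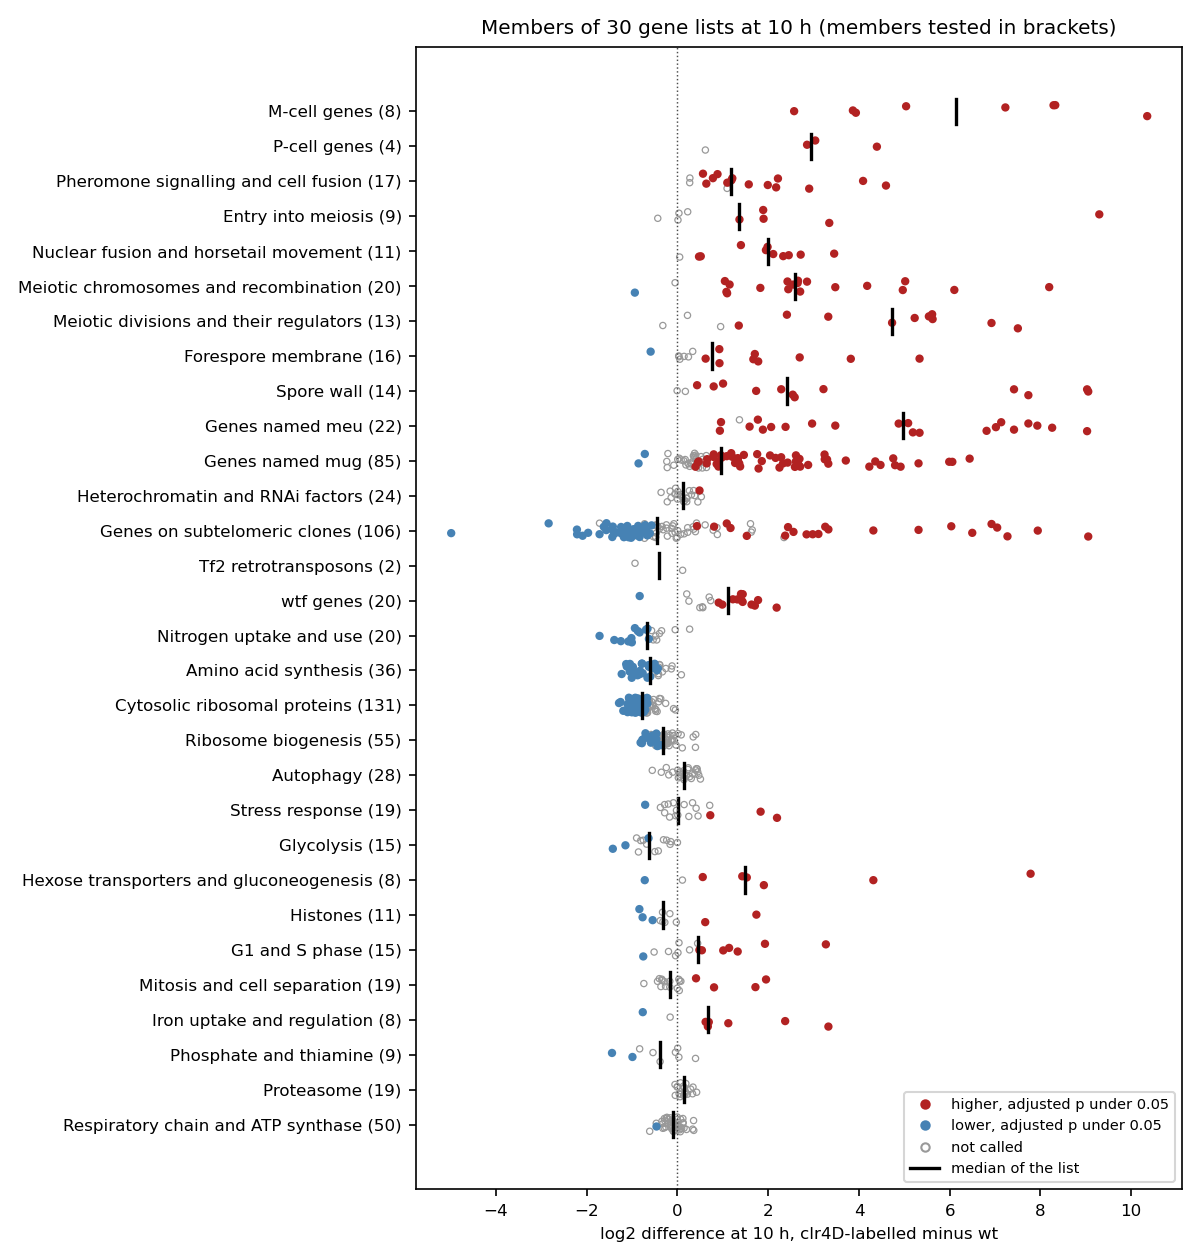
Log2 difference between clr4D-labelled and wt cells at 10 h (x axis) for every tested member of the 30 gene lists (y axis, members tested in brackets). Each point is 1 gene, filled where called, and the bar is the list median, which is 6.13 for M-cell genes, 4.98 for genes named meu and -0.61 for amino acid synthesis genes.

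Genes of the M cell, the mating type that an h+ label does not name, had the highest median of the 30 lists. Of the M-cell genes, 8 of 8 were higher and 0 lower, with a median log2 difference of 6.13. The list's summed level was 246.1 and 273.2 CPM in wt and 9449 and 11040 CPM in clr4D-labelled cells. mfm1, 1 of the genes for the M-factor pheromone, had 9.81 and 7.74 CPM in the wt libraries against 2196 and 3742 CPM in the clr4D-labelled libraries (log2 difference 8.33 ± 0.38 SE, adjusted p = 9.44e-14). A sister gene, mfm2, was measured at 6.28 and 4.42 CPM in wt and 817 and 929.8 CPM in clr4D-labelled cells (log2 difference 7.23 ± 0.25 SE, adjusted p = 2.12e-16). The last of them, mfm3, had 2 reads over both wt libraries and 2586 over both clr4D-labelled libraries, a ratio of 1460-fold with a 95% counting interval of 403 to 12000, which like all such intervals and limits here covers counting error only.

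mam2, the receptor by which M cells sense P-factor, came to 5.49 and 7.74 CPM in wt and to 1972 and 1925 CPM in the clr4D-labelled cells (log2 difference 8.29 ± 0.25 SE, adjusted p = 1.56e-17). sxa2, a carboxypeptidase that M cells secrete to break down P-factor, stood at 23.5 and 17.7 CPM in wt and at 730.5 and 698 CPM in clr4D-labelled cells (log2 difference 5.04 ± 0.21 SE, adjusted p = 3.85e-15). Every clr4D-labelled library lay above every wt library for each of these genes. mam1, the exporter of M-factor, had 108 and 111 CPM in the wt libraries against 1787 and 1544 CPM in the clr4D-labelled libraries (log2 difference 3.93 ± 0.19 SE, adjusted p = 9.64e-14). mam3, the agglutinin on the M-cell surface, was measured at 59.6 and 80.7 CPM in wt and 977 and 1011 CPM in clr4D-labelled cells (log2 difference 3.87 ± 0.23 SE, adjusted p = 9.54e-12). mam4, which methylates M-factor during its maturation, came to 32.96 and 43.1 CPM in wt and to 205 and 229 CPM in the clr4D-labelled cells (log2 difference 2.57 ± 0.20 SE, adjusted p = 9.01e-10). The M-cell genes of the mating-type locus could not be followed, as mat1-Mc, mat1-Mi, mat3-Mc and mat3-Mi were listed at 0 reads in all 4 libraries. Their copies are near-identical, and reads that align to more than 1 place were not counted.

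P-cell genes, those of the labelled mating type, were higher with a smaller median: 3 of 4 were higher and 0 lower, with a median log2 difference of 2.95. map2, the gene of P-factor, stood at 377 and 438 CPM in wt and at 3158 and 3509 CPM in clr4D-labelled cells (log2 difference 3.04 ± 0.28 SE, adjusted p = 2.13e-08). map3, the receptor for M-factor, had 349 and 307 CPM in the wt libraries against 2667 and 2098 CPM in the clr4D-labelled libraries (log2 difference 2.86 ± 0.26 SE, adjusted p = 1.8e-08). map4, the P-cell agglutinin, was measured at 43.95 and 64.1 CPM in wt and 1228 and 948 CPM in clr4D-labelled cells (log2 difference 4.39 ± 0.37 SE, adjusted p = 2.95e-07). No library overlapped between the groups for these 3 genes, which was a condition of picking them from the list. map1, the transcription factor that P-cell genes depend on, came to 40.8 and 40.9 CPM in wt and to 60.9 and 64.6 CPM in the clr4D-labelled cells (log2 difference 0.61 ± 0.24 SE, adjusted p = 0.0699) and was not called. It passed the threshold in 3 alternative fits, among them limma-voom (adjusted p = 0.0428) and that of the 10 h libraries alone (adjusted p = 0.0125).

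The next list joins the pathway that carries the pheromone signal to the machinery of cell fusion. Of its 17 genes 14 were higher and 0 lower (median 1.19). dni2, a claudin-like membrane protein of the fusion site, stood at 14.9 and 12.2 CPM in wt and at 359.6 and 325 CPM in clr4D-labelled cells (log2 difference 4.60 ± 0.18 SE, adjusted p = 1.36e-15). Its relative dni1 had 9.03 and 7.74 CPM in the wt libraries against 151 and 146 CPM in the clr4D-labelled libraries (log2 difference 4.09 ± 0.20 SE, adjusted p = 1.28e-13). rgs1, which dampens signalling through the pheromone-coupled G protein, was measured at 201 and 201 CPM in wt and 1617 and 1392 CPM in clr4D-labelled cells (log2 difference 2.90 ± 0.19 SE, adjusted p = 2.33e-11). These levels did not overlap between the groups. fus1, the formin of cell fusion, came to 142 and 127 CPM in wt and to 701 and 558 CPM in the clr4D-labelled cells (log2 difference 2.21 ± 0.17 SE, adjusted p = 7.59e-10). ste11, the transcription factor that opens the mating programme, stood at 364 and 415 CPM in wt and at 957 and 812 CPM in clr4D-labelled cells (log2 difference 1.19 ± 0.33 SE, adjusted p = 0.0148). The call of ste11 was lost without wt replicate 1 (log2 1.09, adjusted p = 0.127), without clr4D-labelled replicate 1 (log2 1.07, adjusted p = 0.11) and without wt replicate 2 (log2 1.28, adjusted p = 0.0527). Genes of the core kinase and G-protein chain rose with log2 differences of 0.78 ± 0.13, adjusted p = 7.83e-05 for gpa1, the G-protein alpha subunit, 0.64 ± 0.19, adjusted p = 0.0168 for byr2, a kinase of the chain, and 0.56 ± 0.17, adjusted p = 0.0154 for ras1.

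Among the switches into meiosis, 5 of 9 were higher and 0 lower (median 1.37), falling to 3 higher without wt replicate 1. mei3, whose product inactivates the kinase that blocks meiosis, had 0 reads in both wt libraries and 95 and 55 in the clr4D-labelled libraries, at least 56.4-fold higher when set against a limit of 3 reads over the wt group (0.868 CPM). pat1, that kinase, had 123 and 127 CPM in the wt libraries against 540.0 and 388 CPM in the clr4D-labelled libraries (log2 difference 1.90 ± 0.42 SE, adjusted p = 0.00505). mei2, the RNA-binding protein the kinase restrains, was measured at 1574 and 1993 CPM in wt and 5024 and 4158 CPM in clr4D-labelled cells (log2 difference 1.37 ± 0.32 SE, adjusted p = 0.00287). The low and high groups were apart for each of them. mei4, the forkhead factor of the middle phase of meiosis, came to 36.9 and 39.8 CPM in wt and to 154 and 125 CPM in the clr4D-labelled cells (log2 difference 1.89 ± 0.22 SE, adjusted p = 5.16e-07). rep1, an activator of premeiotic S phase genes, stood at 21.98 and 18.8 CPM in wt and at 231 and 195 CPM in clr4D-labelled cells (log2 difference 3.35 ± 0.19 SE, adjusted p = 1.44e-12). The call of pat1 was lost without wt replicate 1 (log2 1.87, adjusted p = 0.0642) and without clr4D-labelled replicate 1 (log2 1.64, adjusted p = 0.0538). The call of mei2 was lost without wt replicate 1 (log2 1.20, adjusted p = 0.0586).

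**Figure D2:**
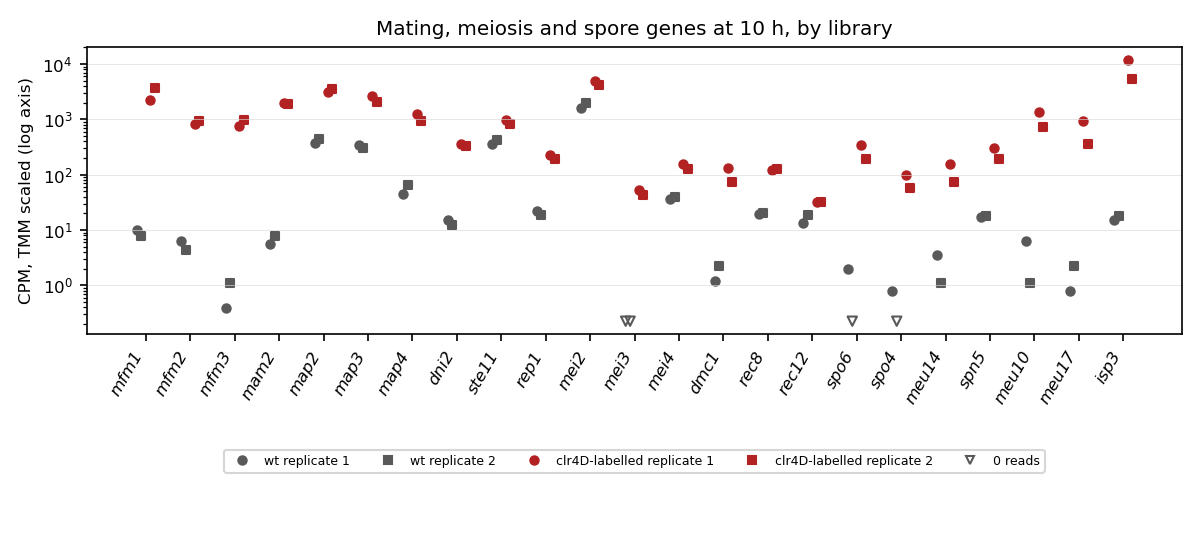
Level in each library at 10 h (CPM, log axis) of 23 genes of mating, meiosis and spore formation, with circles for replicate 1, squares for replicate 2 and open triangles for 0 reads. For mam2 the wt libraries lie at 5.49 and 7.74 CPM and the clr4D-labelled libraries at 1972 and 1925 CPM, and for rec12 the gap is narrow, from 13.3 and 18.8 to 32.4 and 31.5 CPM.

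Nuclear fusion and the back-and-forth movement of the meiotic nucleus were represented by 11 tested genes, 10 higher and 0 lower (median 1.99), with 6 higher without wt replicate 1. dhc1, the dynein heavy chain that pulls the nucleus, had 287 and 268 CPM in the wt libraries against 1705 and 1336 CPM in the clr4D-labelled libraries (log2 difference 2.45 ± 0.20 SE, adjusted p = 2.06e-09). tht1, needed for nuclei to fuse, was measured at 21.6 and 6.64 CPM in wt and 135 and 85.1 CPM in clr4D-labelled cells (log2 difference 2.72 ± 0.36 SE, adjusted p = 1.74e-05). bqt1, which gathers telomeres at the spindle pole, came to 0.392 and 4.42 CPM in wt and to 18.99 and 14.97 CPM in the clr4D-labelled cells (log2 difference 3.45 ± 0.62 SE, adjusted p = 0.000166). The groups were apart in each case, though the wt reads of bqt1 were few, with 1 and 4. The call of bqt1 was lost without wt replicate 1 (log2 1.94, adjusted p = 0.0678). bqt1 stayed called with a log2 difference of 5.20 without wt replicate 2 and tht1 with 4.05 without wt replicate 1.

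Meiotic chromosome and recombination genes stood at 18 higher and 1 lower of 20 (median 2.60). rec8, the cohesin subunit that holds sister chromatids together through meiosis I, stood at 19.2 and 19.9 CPM in wt and at 119.5 and 127 CPM in clr4D-labelled cells (log2 difference 2.66 ± 0.21 SE, adjusted p = 6.41e-10). dmc1, a strand exchange protein, had 1.18 and 2.21 CPM in the wt libraries against 133 and 74.9 CPM in the clr4D-labelled libraries (log2 difference 6.10 ± 0.51 SE, adjusted p = 2.14e-09). hop1, a protein of the chromosome axis, was measured at 3.14 and 1.11 CPM in wt and 83.2 and 82.7 CPM in clr4D-labelled cells (log2 difference 4.97 ± 0.38 SE, adjusted p = 4.78e-10). All clr4D-labelled values exceeded all wt values. rec10, another axis protein, came to 23.5 and 33.2 CPM in wt and to 154 and 136 CPM in the clr4D-labelled cells (log2 difference 2.44 ± 0.19 SE, adjusted p = 4.78e-10). rec12, which makes the DNA breaks that start recombination, stood at 13.3 and 18.8 CPM in wt and at 32.4 and 31.5 CPM in clr4D-labelled cells (log2 difference 1.08 ± 0.26 SE, adjusted p = 0.00357). Both of these separated the groups, rec12 by a narrow gap. For rec15, a partner of that enzyme, both wt libraries had 0 reads and the clr4D-labelled libraries 41 and 28, at least 25.9-fold higher. The exception was mcp7, a strand exchange cofactor, which fell and stood at 91.4 and 86.3 CPM in wt and at 48.6 and 44.1 CPM in clr4D-labelled cells (log2 difference -0.94 ± 0.18 SE, adjusted p = 0.000425). The call of rec12 was lost without wt replicate 1 (log2 0.76, adjusted p = 0.184). hop1 stayed called with a log2 difference of 6.13 without wt replicate 1.

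Regulators of the meiotic divisions gave 10 higher and 0 lower of 13 (median 4.73). spo6, the regulatory subunit of a kinase needed for meiosis II and sporulation, was measured at 1.96 and 0 CPM in wt and 349 and 195 CPM in clr4D-labelled cells (log2 difference 7.50 ± 0.41 SE, adjusted p = 1.12e-12). spo4, its catalytic partner, had 2 wt reads and 250 clr4D-labelled reads, a ratio of 141-fold (95% counting interval 38.6 to 1170). The ratio was 55.6-fold (95% counting interval 18.7 to 273) for mfr1, a meiotic activator of the anaphase-promoting complex, and 63.2-fold (95% counting interval 10.9 to 2540) for rem1, a meiotic cyclin. spo6 stayed called with a log2 difference of 11.76 without wt replicate 1, spo4 with 9.96 without wt replicate 1, rem1 with 7.83 without wt replicate 1 and mfr1 with 4.83 without clr4D-labelled replicate 1.

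Forespore membrane genes were mixed: 9 higher and 1 lower of 16 (median 0.77). meu14, at the leading edge of the growing membrane, came to 3.53 and 1.11 CPM in wt and to 159 and 74.9 CPM in the clr4D-labelled cells (log2 difference 5.34 ± 0.42 SE, adjusted p = 7.9e-10). spn5, a septin of sporulating cells, stood at 17.3 and 17.7 CPM in wt and at 300.4 and 189 CPM in clr4D-labelled cells (log2 difference 3.82 ± 0.24 SE, adjusted p = 1.9e-11). A companion septin, spn7, had 25.9 and 25.4 CPM in the wt libraries against 213 and 117 CPM in the clr4D-labelled libraries (log2 difference 2.69 ± 0.23 SE, adjusted p = 4.6e-09). These separated the groups without overlap. spo15, a spindle pole protein on which the membrane starts, was not called and stood at 565 and 558 CPM in wt and at 627 and 521 CPM in clr4D-labelled cells (log2 difference 0.03 ± 0.14 SE, adjusted p = 0.91). spo14, a factor of membrane traffic, fell and stood at 109 and 113 CPM in wt and at 86.6 and 57.5 CPM in clr4D-labelled cells (log2 difference -0.59 ± 0.19 SE, adjusted p = 0.0281). The call of spo14 was lost without wt replicate 1 (log2 -0.62, adjusted p = 0.134), without wt replicate 2 (log2 -0.58, adjusted p = 0.0828) and without clr4D-labelled replicate 2 (log2 -0.36, adjusted p = 0.259). It was also not called with library totals alone (adjusted p = 0.211), upper quartile scaling (adjusted p = 0.0572) or DESeq2 (adjusted p = 0.0895). meu14 stayed called with a log2 difference of 6.64 without wt replicate 1 and 4.68 without clr4D-labelled replicate 1.

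Spore wall genes gave 12 higher and 0 lower of 14 (median 2.41). isp3, the main protein of the spore surface coat, stood at 15.3 and 17.7 CPM in wt and at 11784 and 5429 CPM in clr4D-labelled cells (log2 difference 9.05 ± 0.50 SE, adjusted p = 2.33e-11). meu10, a cell surface protein needed for a normal spore wall, had 6.28 and 1.11 CPM in the wt libraries against 1357 and 738 CPM in the clr4D-labelled libraries (log2 difference 7.73 ± 0.40 SE, adjusted p = 2.45e-10). bgs2, the glucan synthase of the spore wall, was measured at 128 and 176 CPM in wt and 639 and 342 CPM in clr4D-labelled cells (log2 difference 1.73 ± 0.20 SE, adjusted p = 1.35e-06). All 3 were apart between the groups, and for isp3 and meu10 replicate 1 of the clr4D-labelled cells was above replicate 2. gas4, which remodels spore wall glucan, came to 113 and 119 CPM in wt and to 919 and 461 CPM in the clr4D-labelled cells (log2 difference 2.58 ± 0.24 SE, adjusted p = 3.33e-07). meu17, annotated as a glucan glucosidase, stood at 0.785 and 2.21 CPM in wt and at 928 and 357 CPM in clr4D-labelled cells (log2 difference 9.03 ± 0.64 SE, adjusted p = 6.25e-08). meu7 had 6.67 and 4.42 CPM in the wt libraries against 1378 and 708 CPM in the clr4D-labelled libraries (log2 difference 7.42 ± 0.35 SE, adjusted p = 1.96e-11). isp3 stayed called with a log2 difference of 8.39 without clr4D-labelled replicate 1, meu10 with 9.79 without wt replicate 1 and meu17 with 8.14 without wt replicate 1 and 8.17 without clr4D-labelled replicate 1.

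Genes named for their rise in meiosis are less known by function. Of those named meu, 21 of 22 were higher and 0 lower (median 4.98), and of those named mug, 53 of 85 were higher and 2 lower (median 0.96), or 35 higher without clr4D-labelled replicate 1. meu3, a non-coding RNA, was measured at 3.53 and 3.32 CPM in wt and 1311 and 858 CPM in clr4D-labelled cells (log2 difference 8.26 ± 0.38 SE, adjusted p = 1.3e-11). mug137, which encodes a membrane-shaping BAR protein, came to 1.57 and 1.11 CPM in wt and to 179 and 81.2 CPM in the clr4D-labelled cells (log2 difference 6.44 ± 0.50 SE, adjusted p = 1.07e-09). Both separated the groups. Of the 2 mug genes that fell, mug168 stood at 179 and 170.3 CPM in wt and at 94.9 and 98.5 CPM in clr4D-labelled cells (log2 difference -0.86 ± 0.22 SE, adjusted p = 0.00816). The other, mug191, had 336 and 367 CPM in the wt libraries against 227 and 199 CPM in the clr4D-labelled libraries (log2 difference -0.72 ± 0.22 SE, adjusted p = 0.0201). The call of mug168 was lost without wt replicate 1 (log2 -0.82, adjusted p = 0.079) and without clr4D-labelled replicate 1 (log2 -0.83, adjusted p = 0.0826). The call of mug191 was lost without wt replicate 1 (log2 -0.79, adjusted p = 0.0685), without clr4D-labelled replicate 1 (log2 -0.82, adjusted p = 0.0673), without wt replicate 2 (log2 -0.66, adjusted p = 0.0948) and without clr4D-labelled replicate 2 (log2 -0.64, adjusted p = 0.119). With library totals alone mug191 was not called either (adjusted p = 0.0655). mug137 stayed called with a log2 difference of 5.75 without clr4D-labelled replicate 1.

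Replicate libraries of clr4D-labelled cells differed in several of these lists, which share genes and are not independent. The spore wall and meu lists share meu7, meu10 and meu17, and the forespore membrane and meu lists share meu14. The summed level in replicate 1 over replicate 2 was 2.01 for spore wall genes, 1.92 for meu genes, 1.59 for division regulators and 1.54 for wtf genes, against 0.86 for M-cell and 1.07 for P-cell genes. In wt the same ratios were between 0.90 and 1.16. Of the higher members with at least 10 CPM, replicate 1 was above replicate 2 in 12 of 12 for the spore wall, 21 of 21 for meu, 10 of 10 for division regulators and 9 of 9 for the forespore membrane, but in 3 of 8 for M-cell genes. Over all higher genes it was above in 472 of 627. Both clr4D-labelled libraries nevertheless lay above both wt libraries in summed level for each of these lists.

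The strain difference was compared with that at 3 other times, chosen as the start, the sample before and the sample after. Against 0 h, the difference was larger or smaller in 412 genes (7.27% of those tested), 236 of them toward higher in clr4D-labelled cells (4.17%) and 176 toward lower (3.11%). Leaving out 1 library took this count to between 192 (without wt 10 h replicate 1) and 392, with 201 without clr4D-labelled 10 h replicate 1, 205 without wt 0 h replicate 2, 236 without wt 0 h replicate 1 and 254 without clr4D-labelled 0 h replicate 2. The lean toward higher was not stable: it turned to 170 higher and 206 lower without clr4D-labelled 0 h replicate 1, and to 216 higher and 364 lower of 580 when only the libraries of those groups were fitted. For mam2 the change was log2 7.84 ± 0.73, adjusted p = 2.55e-07, and all 8 tested M-cell genes passed. Other changes were toward lower, with log2 -1.25 ± 0.27, adjusted p = 0.00546 for put4, a proline transporter, and -1.90 ± 0.27, adjusted p = 7.89e-05 for aat1, an amino acid permease. At 0 h aat1 had mean levels of 325 CPM in wt and 370 CPM in clr4D-labelled cells, so it was not lower there. The differences share the same 10 h libraries, so the comparisons with other times are not independent. As 10 h was picked as the time of the widest difference, counts of genes with a larger difference at 10 h than at another time reuse the values behind that choice and support nothing on their own.

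Against 4 h, 65 genes passed (1.15%), 64 toward higher (1.13%) and 1 toward lower (0.0177%). Between the wt libraries at 4 h, replicates 1 and 2, some summed levels differed widely. Glycolysis genes stood at 73120 and 190312 CPM there and ribosomal protein genes at 44439 and 105051 CPM. Other sums were alike, as for spore wall genes at 1490 and 1506 CPM. How this bears on the 4 h comparison was not tested. The count was 10 when only the libraries of those groups were fitted. It was 340 without wt 4 h replicate 1, with 258 toward higher and 82 toward lower, of which 24 were shared with the 65, and 104 without clr4D-labelled 10 h replicate 2, against 33 without wt 10 h replicate 1 and 38 without clr4D-labelled 10 h replicate 1. Larger at 10 h were 8 spore wall, 9 meu, 10 mug, 4 forespore membrane and 3 division genes, and 0 M-cell, 0 P-cell, 0 pheromone pathway and 0 recombination genes. Genes shared by lists are counted in each. The change since 4 h was log2 6.40 ± 0.77, adjusted p = 6.63e-05 for isp3, 6.27 ± 0.96, adjusted p = 0.00193 for meu10 and 3.80 ± 0.42, adjusted p = 2.16e-05 for spn5. It was log2 0.23 ± 0.39, adjusted p = 0.94 for mam2 and 1.51 ± 1.49, adjusted p = 0.859 for dmc1, which did not pass. Mean dmc1 in clr4D-labelled cells was still 16.98 CPM at 4 h and 104.16 at 10 h, with wt near the floor at 0.33 and 1.69 CPM. Summed recombination genes in clr4D-labelled cells were at 835 ± 99.8 CPM at 4 h and 1421 ± 147 at 10 h. Against 24 h, 75 genes passed (1.32%), 64 toward higher (1.13%) and 11 toward lower (0.194%). When only the libraries of those groups were fitted the count was 157 and the lean toward higher was gone, with 77 higher and 80 lower, and DESeq2 gave 46 higher and 19 lower. It ranged from 21 without wt 10 h replicate 1 to 136 without clr4D-labelled 10 h replicate 2, with 23 without clr4D-labelled 10 h replicate 1, 34 and 40 without wt 24 h replicates 1 and 2, 44 without wt 10 h replicate 2 and 47 without clr4D-labelled 24 h replicate 1. The strain difference was larger at 10 h than at 24 h by log2 1.56 ± 0.29, adjusted p = 0.00431 for rec8 and by 2.88 ± 0.36, adjusted p = 0.000104 for spn5.

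Summed levels followed these lists over the course. M-cell genes in clr4D-labelled cells stood at 234 ± 10.5 CPM (mean ± SD, n = 2) at 0 h, 2938 ± 94.3 at 2 h, 9509 ± 303 at 4 h, 10244 ± 1124 at 10 h and 4733 ± 494 at 24 h, and in wt they stayed between 211 ± 2.08 and 259.6 ± 19.2 CPM. Spore wall genes in clr4D-labelled cells were at 1623 ± 88.8 CPM at 4 h, 16187 ± 7693 at 10 h and 13500.0 ± 5629 at 24 h, against 1589 ± 9.82 in wt at 10 h. isp3 alone made up 8606 ± 4494 CPM of the sum at 10 h and 10918 ± 5217 at 24 h, and the other spore wall genes together stood at 7581 ± 3199 CPM at 10 h and 2582 ± 413 at 24 h. The summed meu genes were at 339.7 ± 20.8 CPM at 4 h, 6976 ± 3119 at 10 h and 1044 ± 154 at 24 h in clr4D-labelled cells. P-cell genes stood in wt at 151 ± 23.7 CPM at 0 h and at 830.4 ± 28.3 at 10 h.

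**Figure D3:**
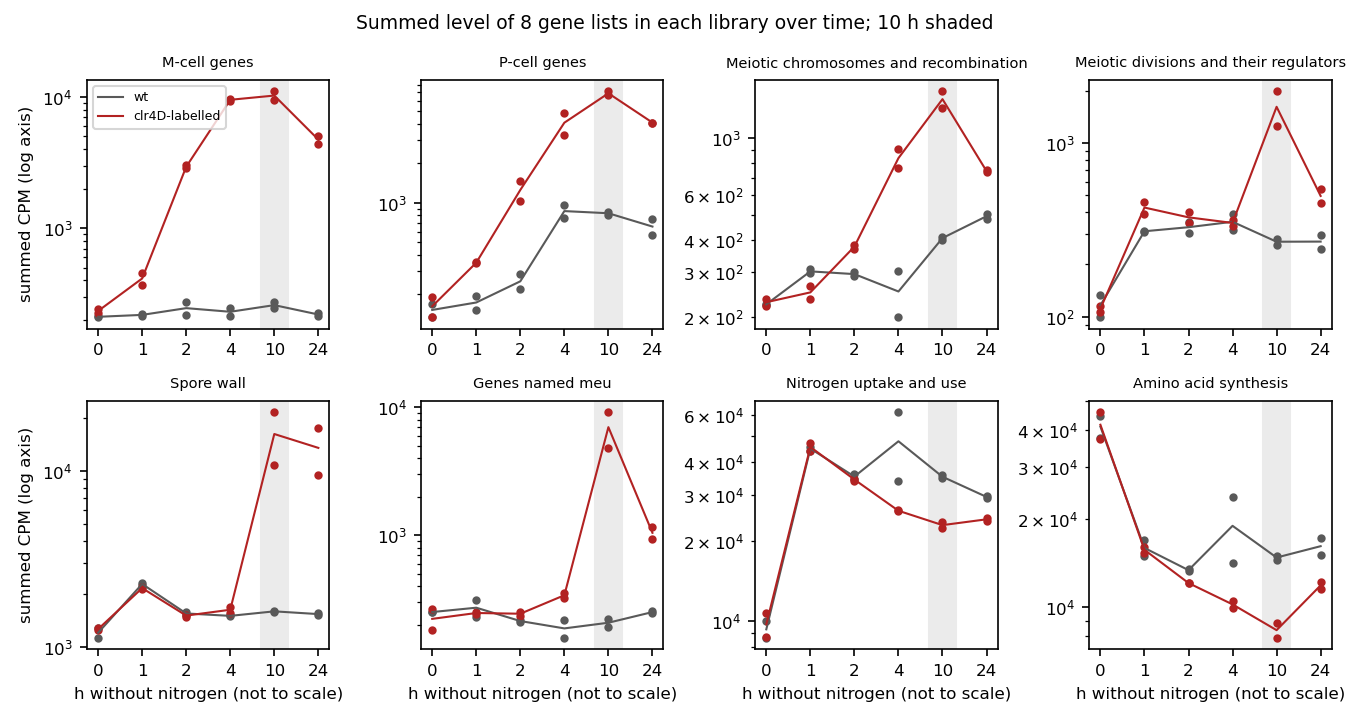
Summed level (CPM, log axis) of 8 gene lists in each of the 24 libraries over hours without nitrogen (times not to scale), grey for wt and red for clr4D-labelled cells, with lines through the means of the 2 libraries and 10 h shaded. In clr4D-labelled cells the M-cell sum is 9509 ± 303 CPM at 4 h, while the spore wall sum is 1623 ± 88.8 at 4 h and 16187 ± 7693 at 10 h.

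Regions normally silenced by Clr4 were examined next. tlh1 and tlh2, helicase genes at chromosome ends, share near-identical copies, so their single counts are uncertain. tlh2 had 3 wt reads and 377 clr4D-labelled reads, a ratio of 142-fold (95% counting interval 48.1 to 690). tlh1 had 0 wt reads and 11 and 10 in the clr4D-labelled libraries, at least 7.89-fold higher. The call of tlh1 was lost without wt replicate 1 (log2 6.46, adjusted p = 0.0912). tlh2 stayed called with a log2 difference of 10.62 without wt replicate 1. Other subtelomeric genes without a wt read were SPAC750.01, annotated as an aldo/keto reductase, at least 22.2-fold higher, SPAC186.06, annotated as an isomerase, at least 13.5-fold higher, and SPAC186.04c, at least 10.5-fold higher.

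Chromosome ends did not move together. Of 160 genes on subtelomeric clones, 106 had enough reads to be tested. Among these, 22 were higher (20.8%) and 38 lower (35.8%), with a median of -0.45. Over all tested genes 12% were higher and 12% lower. The median was -0.23 without wt replicate 1, and -0.04 over the 139 genes with any read when the filter was dropped. The list holds genes of other lists, among them isp3, ght3 and str3 on clone SPAC1F8. Higher genes outnumbered lower ones on SPAC186 (3 higher and 1 lower of 5 tested), SPAC212 (3 and 0 of 4), SPAC1F8 (3 and 0 of 7), SPAC5H10 (3 and 2 of 12), SPBCPT2R1 (2 and 0 of 2) and SPAC750 (1 and 0 of 1). Lower genes outnumbered higher ones on SPAC11D3 (12 lower and 0 higher of 18, median -0.88), SPAC869 (7 and 0 of 11, median -1.39), SPBC1683 (6 and 3 of 13, median -0.47) and SPBPB21E7 (4 and 0 of 7, median -0.82). The other 5 clones held 4 higher and 6 lower genes. Beside the shares over all tested genes, tallies on clones with few tested genes carry little weight on their own. Of the tested genes on these clones 11 had 3 or fewer wt reads, and 7 of these were among the higher. Genes that passed the filter only through their reads in clr4D-labelled cells had to differ, so the share of the tested genes that rose is no evidence on its own.

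**Figure D4:**
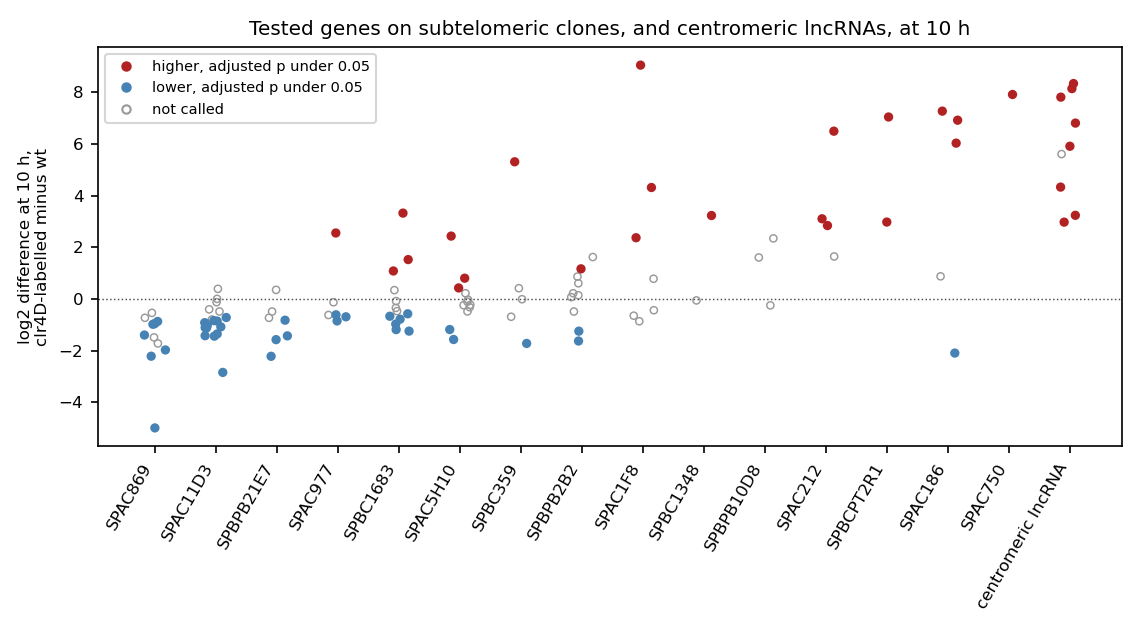
Log2 difference at 10 h (y axis) of the tested genes on each subtelomeric clone and of the centromeric lncRNAs (x axis), 1 point per gene, filled where called. The clones run by median from SPAC869 at -1.39 to SPAC750, with 1 tested gene, at 7.94. Points on the plot for genes with 0 wt reads are fitted values, and their bounds are given in the text.

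Centromeric repeats gave transcripts in clr4D-labelled cells. Of 22 centromeric lncRNAs, picked by their annotation after their values were seen, 12 had a read in clr4D-labelled cells at 10 h and 5 in wt. Of the 9 that had enough reads to be tested, 7 had 3 or fewer wt reads at 10 h. The filter took in all 24 libraries, and any that passed only through clr4D-labelled libraries had to differ. The count of 8 higher and 0 lower of these 9 therefore supports nothing. SPNCRNA.231 had 1 wt read and 370 clr4D-labelled reads, a ratio of 417-fold (95% counting interval 74.4 to 16500), and SPNCRNA.232 had 3 and 660, a ratio of 248-fold (95% counting interval 84.5 to 1210). At 0 h, SPNCRNA.231 and SPNCRNA.232 had mean levels of 14.7 and 17.7 CPM in wt and 121 and 147 CPM in clr4D-labelled cells. At 10 h, SPNCRNA.365 had 0 wt reads and was at least 25.2-fold higher. nam5, a centromeric lncRNA with a name of its own, was measured at 1.96 and 1.11 CPM in wt and 17.3 and 16.5 CPM in clr4D-labelled cells (log2 difference 3.24 ± 0.50 SE, adjusted p = 4.13e-05). SPNCRNA.359, another of them, came to 3.53 and 4.42 CPM in wt and to 31.3 and 29.2 CPM in the clr4D-labelled cells (log2 difference 2.98 ± 0.36 SE, adjusted p = 1.18e-06). In each of these the clr4D-labelled libraries were above the wt libraries. SPNCRNA.231 stayed called with a log2 difference of 10.55 without wt replicate 1, SPNCRNA.232 with 11.39 without wt replicate 1 and nam5 with 3.85 without wt replicate 1.

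The genes for the silencing machinery itself gave few calls. Of 24 heterochromatin and RNAi factors, 1 was higher and 0 lower (median 0.13), against 12% higher and 12% lower over all tested genes. swi6, the protein that binds methylated lysine 9, stood at 62.8 and 76.3 CPM in wt and at 60.9 and 70.1 CPM in clr4D-labelled cells (log2 difference -0.06 ± 0.17 SE, adjusted p = 0.894). ago1, the Argonaute of the RNAi pathway, had 157 and 174 CPM in the wt libraries against 195 and 184 CPM in the clr4D-labelled libraries (log2 difference 0.21 ± 0.12 SE, adjusted p = 0.243). Neither was called. mit1, a chromatin remodeller, was the 1 called and stood at 106 and 98.4 CPM in wt and at 139.6 and 145 CPM in clr4D-labelled cells (log2 difference 0.47 ± 0.14 SE, adjusted p = 0.0176). The call of mit1 was lost without wt replicate 1 (log2 0.53, adjusted p = 0.0859), without clr4D-labelled replicate 1 (log2 0.50, adjusted p = 0.0665), without wt replicate 2 (log2 0.43, adjusted p = 0.0876) and without clr4D-labelled replicate 2 (log2 0.43, adjusted p = 0.08).

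Repeats were measured only by uniquely placed reads. Of 13 Tf2 retrotransposons, 2 had enough uniquely placed reads to be tested and 0 were called. Tf2-7 came to 7.85 and 8.85 CPM in wt and to 5.03 and 3.15 CPM in the clr4D-labelled cells (log2 difference -0.94 ± 0.53 SE, adjusted p = 0.218). Tf2-11 stood at 5.49 and 5.53 CPM in wt and at 3.91 and 8.67 CPM in clr4D-labelled cells (log2 difference 0.11 ± 0.49 SE, adjusted p = 0.918). Of the wtf genes, a family of meiotic drivers and their antidotes whose copies are similar and whose counts are thereby uncertain, 12 of 20 were higher and 1 lower (median 1.10). The higher count was 6 with DESeq2, 6 without wt replicate 1 and 3 without clr4D-labelled replicate 1. wtf9, an antidote-like member, had 13.7 and 11.1 CPM in the wt libraries against 48.6 and 34.7 CPM in the clr4D-labelled libraries (log2 difference 1.71 ± 0.35 SE, adjusted p = 0.000677). wtf18, of the same kind, was measured at 8.63 and 8.85 CPM in wt and 52.5 and 25.2 CPM in clr4D-labelled cells (log2 difference 2.19 ± 0.38 SE, adjusted p = 0.000127). wtf14 fell and stood at 92.6 and 92.9 CPM in wt and at 55.8 and 47.3 CPM in clr4D-labelled cells (log2 difference -0.83 ± 0.17 SE, adjusted p = 0.000768). The libraries of the groups did not overlap in any of these 3. wtf18 stayed called with a log2 difference of 1.53 without clr4D-labelled replicate 1.

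The falls included genes for taking up and using nitrogen. Of 20 such genes, 0 were higher and 12 lower, with a median of -0.68 against -0.02 over all genes tested, and 6 were lower without clr4D-labelled replicate 1. put4, the proline transporter, stood at 2166 and 1932 CPM in wt and at 726 and 835 CPM in clr4D-labelled cells (log2 difference -1.39 ± 0.18 SE, adjusted p = 1.94e-06). aat1, the amino acid permease, had 115 and 127 CPM in the wt libraries against 38.5 and 33.9 CPM in the clr4D-labelled libraries (log2 difference -1.72 ± 0.21 SE, adjusted p = 1.17e-06). isp5, an amino acid permease first described in sexually differentiating cells, was measured at 2976 and 2694 CPM in wt and 1192 and 1484 CPM in clr4D-labelled cells (log2 difference -1.08 ± 0.17 SE, adjusted p = 4.85e-05). For all 3, both clr4D-labelled libraries lay below both wt libraries. gln1, glutamine synthetase, came to 1134 and 1093 CPM in wt and to 395 and 544 CPM in the clr4D-labelled cells (log2 difference -1.25 ± 0.31 SE, adjusted p = 0.00611). amt1, an ammonium transporter, stood at 1708 and 1741 CPM in wt and at 937 and 997 CPM in clr4D-labelled cells (log2 difference -0.83 ± 0.28 SE, adjusted p = 0.032). isp4, an oligopeptide transporter, was not called and stood at 7663 and 8313 CPM in wt and at 5557 and 5197 CPM in clr4D-labelled cells (log2 difference -0.57 ± 0.25 SE, adjusted p = 0.108). isp6, a protease of starved cells, was also not called and stood at 6107 and 6059 CPM in wt and at 5551 and 6191 CPM in clr4D-labelled cells (log2 difference -0.05 ± 0.26 SE, adjusted p = 0.923). The call of gln1 was lost without clr4D-labelled replicate 1 (log2 -1.03, adjusted p = 0.0965). The call of amt1 was lost without wt replicate 1 (log2 -0.85, adjusted p = 0.117), without clr4D-labelled replicate 1 (log2 -0.79, adjusted p = 0.175), without wt replicate 2 (log2 -0.82, adjusted p = 0.103) and without clr4D-labelled replicate 2 (log2 -0.89, adjusted p = 0.0921).

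SPAC869, the subtelomeric clone that carries put4, held 7 lower genes, among them the largest fall of the genes named here. SPAC869.01, annotated as an amidase, came to 85.9 and 111 CPM in wt and to 2.79 and 3.15 CPM in the clr4D-labelled cells (log2 difference -4.99 ± 0.41 SE, adjusted p = 1.37e-08). SPAC869.04, annotated as a formamidase-like protein, stood at 4760.5 and 4541 CPM in wt and at 792 and 1217 CPM in clr4D-labelled cells (log2 difference -2.21 ± 0.25 SE, adjusted p = 3.3e-07). SPAC869.03c, annotated as a urea transporter, had 4521 and 3647 CPM in the wt libraries against 902 and 1185 CPM in the clr4D-labelled libraries (log2 difference -1.97 ± 0.21 SE, adjusted p = 2.12e-07). Each of them was lower in both clr4D-labelled libraries. A urea transporter elsewhere, SPBC23G7.13c, was measured at 169.9 and 181 CPM in wt and 44.7 and 50.4 CPM in clr4D-labelled cells (log2 difference -1.89 ± 0.35 SE, adjusted p = 0.000851). On clone SPAC11D3, the agmatinase gene SPAC11D3.09 came to 50.2 and 5.53 CPM in wt and to 4.47 and 4.73 CPM in the clr4D-labelled cells (log2 difference -2.84 ± 0.71 SE, adjusted p = 0.00689). Its wt libraries were far apart. The call of SPAC11D3.09 was lost without wt replicate 1 (log2 -0.27, adjusted p = 0.895) and without clr4D-labelled replicate 1 (log2 -2.81, adjusted p = 0.0879). SPAC11D3.09 stayed called with a log2 difference of -3.44 without wt replicate 2. With limma-voom its adjusted p was 0.0523.

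Amino acid synthesis genes were mostly lower: 24 of 36 were lower and 0 higher (median -0.61). The lower count was 12 without wt replicate 1, 12 without clr4D-labelled replicate 1 and 15 without wt replicate 2. arg4, of arginine synthesis, stood at 2097 and 2274 CPM in wt and at 927 and 1069 CPM in clr4D-labelled cells (log2 difference -1.13 ± 0.21 SE, adjusted p = 0.000238). arg11, of the same route, had 1106 and 1115 CPM in the wt libraries against 445 and 502 CPM in the clr4D-labelled libraries (log2 difference -1.23 ± 0.19 SE, adjusted p = 2.21e-05). ilv3, of branched-chain amino acid synthesis, was measured at 518 and 532 CPM in wt and 219 and 265 CPM in clr4D-labelled cells (log2 difference -1.12 ± 0.20 SE, adjusted p = 0.000212). The clr4D-labelled libraries lay below the wt libraries in all 3. The summed level of the list was 14520 and 14980 CPM in wt and 7876 and 8844 CPM in clr4D-labelled cells.

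Ribosomal protein genes had a median of -0.78, with 46 of 131 lower and 0 higher. That count depended on the fit, at 89 with library totals alone and 123 when only the libraries at 10 h were fitted, and on each library, at 8 without wt replicate 1, 8 without clr4D-labelled replicate 1, 27 without wt replicate 2 and 24 without clr4D-labelled replicate 2. rpl1603, a protein of the large subunit, came to 60.04 and 54.2 CPM in wt and to 21.2 and 26.8 CPM in the clr4D-labelled cells (log2 difference -1.29 ± 0.22 SE, adjusted p = 0.000113). rps1201, of the small subunit, stood at 278 and 233 CPM in wt and at 120.1 and 104 CPM in clr4D-labelled cells (log2 difference -1.19 ± 0.31 SE, adjusted p = 0.009). The groups were apart for both, and since many ribosomal proteins have near-identical gene copies these single counts are uncertain. Ribosome biogenesis gave 14 lower and 0 higher of 55 (median -0.31), with 8 lower under library totals alone, 6 without wt replicate 1, 9 without clr4D-labelled replicate 1, 8 without wt replicate 2 and 9 without clr4D-labelled replicate 2. nog1, a GTPase of large subunit assembly, had 504 and 509.8 CPM in the wt libraries against 282 and 310.5 CPM in the clr4D-labelled libraries (log2 difference -0.78 ± 0.18 SE, adjusted p = 0.00254). The call of rps1201 was lost without wt replicate 1 (log2 -1.05, adjusted p = 0.0871), without clr4D-labelled replicate 1 (log2 -1.30, adjusted p = 0.053) and without clr4D-labelled replicate 2 (log2 -1.11, adjusted p = 0.0667).

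**Figure D5:**
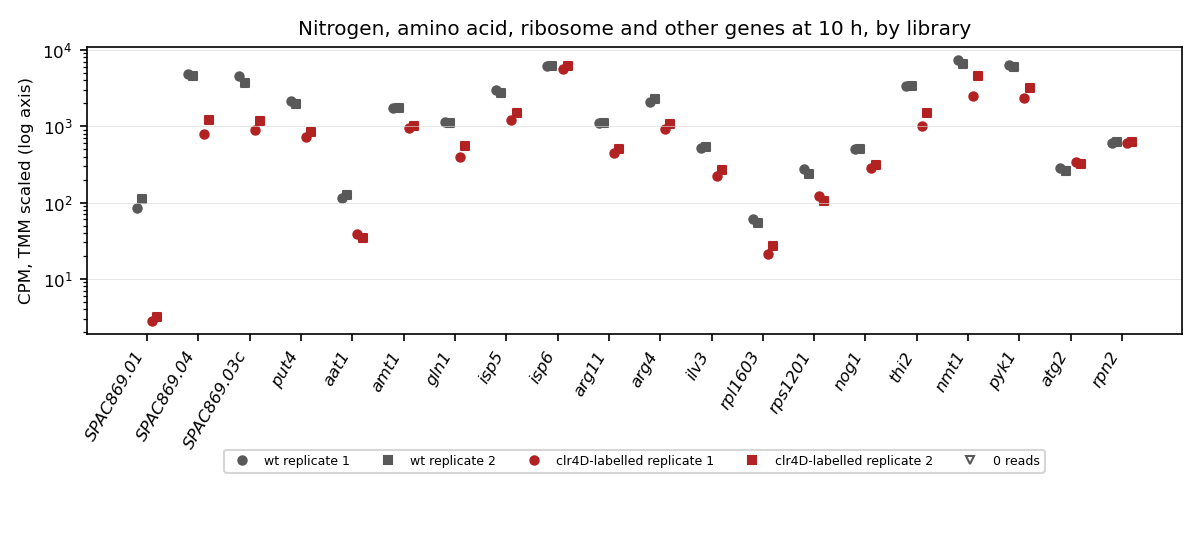
Level in each library at 10 h (CPM, log axis) of 20 genes of nitrogen use, amino acid and ribosome synthesis, vitamins, glycolysis, autophagy and the proteasome, with circles for replicate 1 and squares for replicate 2. For SPAC869.04 the wt libraries lie at 4760.5 and 4541 CPM and the clr4D-labelled libraries at 792 and 1217 CPM, and for rpn2 the wt libraries at 594 and 629 and the clr4D-labelled libraries at 600.3 and 622 CPM.

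Carbon genes moved in both directions. Among hexose transporters and gluconeogenesis genes 6 were higher and 1 lower of 8 (median 1.48). ght6, a glucose and fructose transporter, was measured at 1.18 and 2.21 CPM in wt and 459 and 209 CPM in clr4D-labelled cells (log2 difference 7.78 ± 0.52 SE, adjusted p = 2.24e-09). ght3, a gluconate transporter, came to 8.24 and 9.95 CPM in wt and to 204 and 144 CPM in the clr4D-labelled cells (log2 difference 4.32 ± 0.23 SE, adjusted p = 5.08e-13). fbp1, the gluconeogenic fructose bisphosphatase, stood at 33.4 and 45.3 CPM in wt and at 165 and 111 CPM in clr4D-labelled cells (log2 difference 1.90 ± 0.35 SE, adjusted p = 0.000861). All 3 were apart between groups. Against 4 h the strain difference had grown by log2 2.86 ± 0.34, adjusted p = 3.64e-05 for ght3 and 2.45 ± 0.50, adjusted p = 0.0228 for fbp1. ght6 stayed called with a log2 difference of 7.10 without clr4D-labelled replicate 1. Of 15 glycolysis genes, 3 were lower and 0 higher (median -0.64). The lower count was 8 with library totals alone, 6 with DESeq2 and 6 with limma-voom, 10 when only the libraries at 10 h were fitted, 0 without wt replicate 1, 0 without clr4D-labelled replicate 1 and 1 without wt replicate 2. pyk1, pyruvate kinase, had 6257 and 5905 CPM in the wt libraries against 2359.5 and 3133 CPM in the clr4D-labelled libraries (log2 difference -1.15 ± 0.36 SE, adjusted p = 0.0217). The call of pyk1 was lost without wt replicate 1 (log2 -1.11, adjusted p = 0.108), without clr4D-labelled replicate 1 (log2 -0.95, adjusted p = 0.196) and without wt replicate 2 (log2 -1.19, adjusted p = 0.0616).

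Calls in the cell cycle lists are set against 12% higher and 12% lower over all tested genes. The shares higher and lower were 46.7% and 6.67% for G1 and S phase genes. They were 21.1% and 0% for mitosis and cell separation, and 18.2% and 27.3% for histones. Of G1 and S phase genes 7 were higher and 1 lower of 15 (median 0.44). mik1, a kinase that holds back mitosis, was measured at 21.2 and 24.3 CPM in wt and 249.6 and 176 CPM in clr4D-labelled cells (log2 difference 3.27 ± 0.21 SE, adjusted p = 2.47e-11). cig2, the cyclin of S phase, came to 128 and 139 CPM in wt and to 535 and 477 CPM in the clr4D-labelled cells (log2 difference 1.93 ± 0.17 SE, adjusted p = 7.01e-09). suc22, the small subunit of ribonucleotide reductase, fell and stood at 541 and 501 CPM in wt and at 305 and 314 CPM in clr4D-labelled cells (log2 difference -0.75 ± 0.16 SE, adjusted p = 0.001). The values of the groups were apart in all 3. cdc22, the large subunit of that enzyme, had 772 and 792 CPM in the wt libraries against 1066 and 1205 CPM in the clr4D-labelled libraries (log2 difference 0.54 ± 0.18 SE, adjusted p = 0.0301). The call of cdc22 was lost without wt replicate 1 (log2 0.52, adjusted p = 0.166), without clr4D-labelled replicate 1 (log2 0.63, adjusted p = 0.0657), without wt replicate 2 (log2 0.55, adjusted p = 0.109) and without clr4D-labelled replicate 2 (log2 0.44, adjusted p = 0.182). For mitosis and cell separation 4 of 19 were higher and 0 lower, or 1 higher without wt replicate 1 and 2 without clr4D-labelled replicate 1. agn1, a glucanase that parts daughter cells, was measured at 85.2 and 96.2 CPM in wt and 290.4 and 300.2 CPM in clr4D-labelled cells (log2 difference 1.72 ± 0.31 SE, adjusted p = 0.00054). Of 11 histone genes 2 were higher and 3 lower. cnp1, the centromeric histone, came to 16.5 and 12.2 CPM in wt and to 60.9 and 38.6 CPM in the clr4D-labelled cells (log2 difference 1.74 ± 0.29 SE, adjusted p = 8.58e-05). hht1, a histone H3 gene with near-identical copies, was not called and stood at 215 and 206 CPM in wt and at 217 and 196 CPM in clr4D-labelled cells (log2 difference -0.03 ± 0.17 SE, adjusted p = 0.943). The histone counts were 1 higher with DESeq2, 1 higher and 1 lower without clr4D-labelled replicate 1, 1 higher without wt replicate 2 and 0 lower without wt replicate 1.

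Iron uptake genes gave 6 higher and 1 lower of 8 (median 0.68), with 3 higher without clr4D-labelled replicate 1 and 3 without wt replicate 2. str3, a transporter of iron carriers, had 10.2 and 6.64 CPM in the wt libraries against 58.6 and 34.7 CPM in the clr4D-labelled libraries (log2 difference 2.37 ± 0.38 SE, adjusted p = 4.51e-05). frp1, an iron reductase, was measured at 4.71 and 3.32 CPM in wt and 61.4 and 23.6 CPM in clr4D-labelled cells (log2 difference 3.33 ± 0.45 SE, adjusted p = 5.92e-06). fep1, the repressor of iron uptake genes, fell and stood at 369 and 382 CPM in wt and at 217 and 225 CPM in clr4D-labelled cells (log2 difference -0.77 ± 0.21 SE, adjusted p = 0.0103). The groups did not overlap in these 3. The call of fep1 was lost without wt replicate 1 (log2 -0.79, adjusted p = 0.054) and without clr4D-labelled replicate 1 (log2 -0.73, adjusted p = 0.0852). frp1 stayed called with a log2 difference of 2.44 without clr4D-labelled replicate 1. Of 9 phosphate and thiamine genes 2 were lower and 0 higher. The lower count was 4 with library totals alone, 4 with limma-voom, 5 when only the libraries at 10 h were fitted, and 1 without wt replicate 1, without clr4D-labelled replicate 1 or without wt replicate 2. thi2, a thiamine synthesis enzyme, stood at 3395 and 3397 CPM in wt and at 1009.7 and 1489 CPM in clr4D-labelled cells (log2 difference -1.44 ± 0.28 SE, adjusted p = 0.000428). nmt1, which acts on the other branch of that route, had 7349 and 6518 CPM in the wt libraries against 2493 and 4479 CPM in the clr4D-labelled libraries (log2 difference -0.99 ± 0.32 SE, adjusted p = 0.0251). The call of nmt1 was lost without wt replicate 1 (log2 -0.90, adjusted p = 0.144), without clr4D-labelled replicate 1 (log2 -0.63, adjusted p = 0.328) and without wt replicate 2 (log2 -1.08, adjusted p = 0.0585).

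Autophagy, proteasome and respiratory chain genes showed few or no calls, against 12% higher and 12% lower over all tested genes. Autophagy gave 0 higher and 0 lower of 28 (median 0.15), with 1 to 3 higher in 7 of the alternative fits. atg2, which feeds membrane to the growing autophagosome, was measured at 284 and 262 CPM in wt and 343 and 317 CPM in clr4D-labelled cells (log2 difference 0.27 ± 0.13 SE, adjusted p = 0.122). The proteasome gave 0 and 0 of 19 (median 0.14), with 1 higher in 5 alternative fits. rpn2, of its regulatory cap, came to 594 and 629 CPM in wt and to 600.3 and 622 CPM in the clr4D-labelled cells (log2 difference 0.00 ± 0.14 SE, adjusted p = 1). The groups overlapped for rpn2. The respiratory chain gave 0 higher and 1 lower of 50 (median -0.09, or 0.04 with library totals alone), the 1 lower being qcr6, a subunit of complex III, called with an adjusted p (edgeR) of 0.0447 and log2 -0.47. The call of qcr6 was lost without wt replicate 1 (log2 -0.57, adjusted p = 0.0767), without clr4D-labelled replicate 1 (log2 -0.41, adjusted p = 0.241), without wt replicate 2 (log2 -0.37, adjusted p = 0.228) and without clr4D-labelled replicate 2 (log2 -0.53, adjusted p = 0.0868). qcr6 was also not called with RLE scaling (adjusted p = 0.069), upper quartile scaling (adjusted p = 0.0547), library totals alone (adjusted p = 0.093) or DESeq2 (adjusted p = 0.101). Stress response genes gave 3 higher (15.8%) and 1 lower (5.26%) of 19 (median 0.01), against those same shares over all tested genes. The higher count was 5 under upper quartile scaling and 6 under library totals alone or when only the libraries at 10 h were fitted. The 1 lower, gst3, a glutathione transferase gene (log2 -0.71, adjusted p = 0.0445), was not called with RLE, upper quartile or library total scaling or DESeq2 (adjusted p 0.0606 to 0.134), nor when any 1 of the 4 libraries was left out (adjusted p 0.0585 to 0.282). hsp16, a small heat shock protein, stood at 38.9 and 23.2 CPM in wt and at 168 and 139 CPM in clr4D-labelled cells (log2 difference 2.19 ± 0.32 SE, adjusted p = 8.05e-05). pyp2, a phosphatase that dampens the stress kinase, had 24.7 and 19.9 CPM in the wt libraries against 91.6 and 72.5 CPM in the clr4D-labelled libraries (log2 difference 1.83 ± 0.29 SE, adjusted p = 5.2e-05).

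Long non-coding RNAs often lie opposite a gene, and the strand setting of the counting is not given in the sources used here. Of the tested genes with a place in the annotation, 56.7% overlap a feature on the other strand, while reads set aside as fitting more than 1 feature made up 1.06% to 1.23% of the 10 h libraries. Of the 32 lower lncRNAs, 30 lay opposite a feature of the files, 11 of them opposite a higher gene and 7 opposite a lower gene. Of the 93 higher lncRNAs the numbers were 66, 12 and 10, and of all 675 tested 569, 99 and 83. SPNCRNA.577 was measured at 782 and 832 CPM in wt and 348 and 385 CPM in clr4D-labelled cells (log2 difference -1.14 ± 0.15 SE, adjusted p = 4.85e-06). Its partner SPBC1652.02 moved the other way, from 12.9 and 12.2 CPM in wt to 42.4 and 26.8 CPM in clr4D-labelled cells (log2 1.48 ± 0.27, adjusted p = 0.000261). SPNCRNA.846, opposite the S phase cyclin gene cig2, fell while cig2 rose, and stood at 13.7 and 21.01 CPM in wt and at 5.58 and 2.36 CPM in clr4D-labelled cells (log2 difference -1.93 ± 0.46 SE, adjusted p = 0.00295). SPNCRNA.1381, opposite the M-factor gene mfm3, fell and stood at 27.1 and 33.2 CPM in wt and at 13.4 and 6.30 CPM in clr4D-labelled cells (log2 difference -1.49 ± 0.37 SE, adjusted p = 0.00402). In the same clr4D-labelled libraries mfm3 was at 764 and 959.7 CPM. The call of SPNCRNA.1381 was lost without clr4D-labelled replicate 2 (log2 -1.12, adjusted p = 0.0531). SPNCRNA.846 stayed called with a log2 difference of -2.73 without clr4D-labelled replicate 1 and SPNCRNA.1381 with -2.19 without clr4D-labelled replicate 1. In another pair the directions were the same, SPNCRNA.675 and rgs1 being both higher, with log2 1.79 ± 0.41, adjusted p = 0.00219 for the lncRNA. SPNCRNA.573 rose by log2 5.27 ± 0.38, adjusted p = 1.3e-10 opposite exg3, a glucanase gene, which fell from 185 and 185 CPM to 77.6 and 102 CPM (log2 -1.06 ± 0.20, adjusted p = 0.000339). SPNCRNA.573 stayed called with a log2 difference of 4.19 without wt replicate 1 and 6.04 without wt replicate 2.

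Outside all 30 lists lay 463 of the 677 higher and 528 of the 677 lower genes. The share of all tested genes outside the lists was not counted, so these counts do not show where calls are common. psu2, annotated as a beta-glucosidase, had 385 and 482 CPM in the wt libraries against 139.6 and 146 CPM in the clr4D-labelled libraries (log2 difference -1.59 ± 0.29 SE, adjusted p = 0.000591). Its strain difference at 10 h differed from that at 0 h by log2 -3.58 ± 0.93, adjusted p = 0.0281. crp79, a poly(A)-binding protein of meiosis, was at 3.92 and 0 CPM in wt and 452 and 206 CPM in clr4D-labelled cells, and its strain difference at 10 h exceeded that at 24 h by log2 4.79 ± 0.77, adjusted p = 0.00236. crp79 stayed called with a log2 difference of 12.03 without wt replicate 1 and 6.15 without clr4D-labelled replicate 1.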

How the data were processed

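The deposited values are whole-number counts of reads per annotated feature. Per the submitters' processing notes, the authors used TopHat2 2.0.8, HTSeq 0.6.1 and the ASM294v2 build. The annotation release and the strand setting were not given in the sources used here. The 5 HTSeq totals of reads without a gene were removed, and the features were summed to 6877 genes. Names and neighbours came from ASM294v3, which matched 6705 genes and left 172, so no positions are printed. All 24 libraries were fitted in edgeR 4.0.16 (R 4.3.3, filterByExpr, TMM scaling, 12 group means, robust quasi-likelihood F tests), which kept 5664 genes and dropped 1213. Alternatives used other scalings, no filter, DESeq2 1.42.0, limma-voom (limma 3.58.1), a replicate block, the compared groups alone, and each library left out. A count of 0 was read against 3 reads over the group. On simulated counts, 44 of 50 genes raised 2-fold and 50 of 50 raised 4-fold were called, with 9 of 5392 unchanged genes. The simulation gave every gene the same spread (coefficient of variation 0.1219) and changed only genes with at least 10 CPM in wt. These rates therefore do not cover genes with few wt reads or with a wider spread between replicates.

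The comparison, the gene lists and their members were chosen with earlier results of these data known. Genes are named by a rule: clr4, the 15 largest rises and 15 largest falls called at 10 h with at least 10 CPM and no overlap of libraries, 3 rises and 3 falls from each list, 2 and 2 from each difference between times, and a set of landmarks; not all of these are described. A further 29 genes and the centromeric lncRNAs were chosen after their values were seen. hrs1, can1 and pck1 were taken off the lists because the annotation gives those names to other genes, and mat1-Pc, mat1-Pm, mat2-Pc, mat2-Pi, mat2-Pm, sme2 and dit1 matched no feature.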

Additional observations from a re-analysis of the deposited data

Results flagged for a closer look

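The strain difference at 10 h differed from that at 0 h in 412 genes, from that at 4 h in 65 and from that at 24 h in 75 (edgeR test of the difference, adjusted p under 0.05). As 10 h was picked as the time of the widest difference, larger differences at 10 h are not independent of that choice. Against 0 h, the log2 change of the strain difference was 11.23 for mfm3, 9.96 for meu17 and 7.84 for mam2, and it was -2.74 for SPNCRNA.1416, -3.58 for psu2, -1.2 for clr4, -1.25 for put4 and -1.9 for aat1. Against 4 h it was 10.97 for spo4, 8.37 for SPBC28E12.02, which encodes an RNA-binding protein by annotation, 6.4 for isp3, 6.27 for meu10, 3.8 for spn5, 2.86 for ght3 and 2.45 for fbp1, and -1.68 for thi2. Against 24 h it was 4.79 for crp79, 4.11 for mcp4, 2.88 for spn5 and 1.56 for rec8, and -1.54 for SPNCRNA.1360 and -1.5 for dgc1. Values of genes with 3 or fewer reads in a group, mfm3 and spo4 among them, depend on the small count that the fit adds.

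Outside the gene counts, reads that aligned to several places took 9.26% and 9.07% of the clr4D-labelled libraries at 10 h, above the 6.97% and 7.37% of the wt libraries at that time. Over all 24 libraries the share ran from 5.43% to 12.4%, and the part of repeats in it was not tested.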

How the results depend on the processing

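All 1354 calls at 10 h kept their direction in every alternative in which they were tested. The number of calls was 1345 with RLE scaling, 1389 with upper quartile scaling, 1188 with library totals alone, 1346 without the filter, 1028 with DESeq2, 1442 with limma-voom and 1604 when only the libraries at 10 h were fitted, against 2012 genes at an unadjusted p under 0.05. Leaving out 1 library gave 713 to 1092 calls at 10 h, 192 to 392 for the difference from 0 h, 33 to 340 for that from 4 h and 21 to 136 for that from 24 h. Fitting only the libraries compared gave 580 for the difference from 0 h, 10 for that from 4 h and 157 for that from 24 h; the cause was not tested. With a replicate block the counts were 1523 at 10 h, 513 against 0 h, 82 against 4 h and 135 against 24 h, and map1 was called (adjusted p = 0.0463). Whether the replicate numbers pair the samples is not settled by these values. Same-numbered libraries of wt and clr4D at 10 h deviated with r = 0.111, in a range of -0.077 to 0.333 over 66 pairs of groups. Reads on no feature made up more of replicate 1 than of replicate 2 at 10 h in both strains. Their shares were 4.416% and 3.226% in wt and 4.107% and 3.212% in clr4D-labelled libraries.

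Signs turned for 7 uncalled genes near 0 on the log2 scale. Leaving out 1 library gave -0.494 to 0.653 for Tf2-11 and -0.104 to 0.150 for spo15. rpn2 was -0.0117 without the filter and -0.00537 with limma-voom, and ran from -0.0428 to 0.0388 when 1 library was left out. rpt5 was 0.00296 with upper quartile scaling and 0.0605 with library totals alone. swi6 was 0.0527 with library totals alone, and -0.231 to 0.0572 when 1 library was left out. isp6 was 0.0075 with upper quartile scaling and 0.0646 with library totals alone, and -0.141 to 0.0306 when 1 library was left out. hht1 was 0.00777 with RLE scaling, 0.0309 with upper quartile scaling, 0.0896 with library totals alone, 0.0077 with DESeq2 and 0.0094 with the compared groups alone, and -0.0976 to 0.0352 when 1 library was left out. Depth limits low genes: wt replicate 2 has 798482 gene reads, and 15 higher genes had 0 wt reads and 32 had 1 to 3.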
